A study of Mus musculus with 70 samples.

Results

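The transcripts of 10 circadian clock genes were read out in leukocytes sorted from mouse blood after chronic social defeat stress (CSDS). The genes were Arntl, Clock, Per1, Per2, Per3, Cry1, Cry2, Nr1d1, Nr1d2 and Dbp. They were chosen by name, with earlier results of these data known, and each matched 1 row among the 52636 genes of the deposited count table. The mice were young adult C57BL/6J males. CON mice were unstressed and lived in pairs divided by a partition. SUS and RES mice went through 10 days of CSDS, in which an aggressive CD-1 mouse defeats the experimental mouse, and were then separated by a social interaction test into mice that avoided the other mouse (SUS) and mice that did not (RES). The sources name no transgene, deletion or drug in any of these groups. From each group, 4 cell types were sorted, namely Ly6Chigh monocytes, Ly6Clow monocytes, B cells and T cells, with 6 libraries per group except for 4 CON libraries of Ly6Clow monocytes. Replicates are separate libraries, the labels tie none of them to a mouse, and p-values measure the spread between these libraries. All 4 cell types were sorted from the same stained blood, so libraries of different types may share mice, which the tests between cell types do not take into account.

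The clock of mammalian cells is a feedback loop of transcription. CLOCK and BMAL1, the product of Arntl, bind together to E-box elements and activate, among others, the Per and Cry genes, whose proteins return to the nucleus and repress the pair. A stabilising loop runs through the nuclear receptors REV-ERB alpha and beta, encoded by Nr1d1 and Nr1d2, which repress Arntl, and output genes such as Dbp carry the rhythm to other promoters through D-box elements. In leukocytes the clock is known for daily rhythms in the number of circulating cells and in the strength of inflammatory responses. Because most of these transcripts cycle, their level depends on the hour of sampling. The hour of blood collection is not given in the sources used here.

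The deposited values are whole read counts per gene, between 19769835 and 67038231 in total per library. Levels are given below as CPM, counts relative to the library total after TMM normalisation, which scales each library by the bulk of its genes. Brain stands in the labels as the tissue, whereas the methods describe leukocytes sorted from blood, and the sets of 3 or 4 defining markers were high in the cell type named. Summed CPM of the B cell set (Cd79a, Cd79b, Ms4a1) lay between 2580 and 4100 in B cells and at most 25.3 in the other types. That of the T cell set (Cd3e, Cd3d, Cd3g, Lck) lay between 1310 and 2000 in T cells and at most 95.7 elsewhere. The sets of Ly6Chigh and Ly6Clow monocytes were at least 3870 and 3530 in their own type and at most 462 and 869 elsewhere. A natural killer cell set (Ncr1, Klrb1c, Klrk1, Eomes) was highest in Ly6Clow monocytes, at 176 to 744 CPM, against 34.3 to 186 in T cells and at most 34.4 in the other types, and its part in the Ly6Clow values was not tested. Libraries 52 and 70 went against their labels. Library 52, labelled as B cells of RES mice, held 8.99 CPM of the B cell set and 1490 CPM of the T cell set, and library 70, labelled as T cells of RES mice, held 3030 CPM of the B cell set and 17.1 CPM of the T cell set. Both were left out, so that 68 libraries remained, with 5 in the RES groups of B and T cells. Values with both kept under their labels are given where they differ.

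In the annotation used (GENCODE M21, GRCm38), the activators lie at chr7:113207465-113314126 (Arntl, plus strand) and chr5:76209868-76304792 (Clock, minus strand). The repressors lie at chr11:69095217-69109960 (Per1, plus strand), chr1:91415982-91459324 (Per2, minus), chr4:151003652-151044665 (Per3, minus), chr10:85131700-85185064 (Cry1, minus) and chr2:92403646-92434043 (Cry2, minus). Nr1d1 lies at chr11:98767932-98775333 and Nr1d2 at chr14:18204054-18239127, both on the minus strand, and Dbp at chr7:45705088-45710203 on the plus strand. All 10 are protein-coding genes, and a count is the reads over their exons. Some of these exons overlap a gene on the opposite strand. Nr1d1 shared 263 exonic bases with Thra, Dbp shared 539 with Sphk2, Cry2 shared 295 with D930015M05Rik and Arntl shared 33 with Gm45355. Whether the counting used strand is not stated in the sources used here, so reads from these shared bases cannot be assigned with certainty, and over all libraries Thra (52865 counts) and Sphk2 (114095 counts) had more reads than Nr1d1 (9456 counts) and Dbp (16416 counts).

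Promoter windows show where the letters of the clock's own elements stand in these genes. RefSeq windows on GRCm38.p6 were matched for all members except Per2, 13 windows in 9 genes, and the 250 bases before each start site were searched on both strands. Bases just after the start were found in a GENCODE transcript of the gene for 9 of these 13 windows. The motifs were the E-box CACGTG, its variant CACGTT, the D-box TTATGTAA, the cyclic AMP element TGACGTCA and the ROR half-site TAGGTCA. The E-box was found in a window of Cry1 and in a window of Per1, the variant in Cry1, Cry2 and Nr1d1, and the D-box in Per3, which holds it at 2 places. Another window of Per1 held 0 matches. Neither of the other motifs was found in a member's window. Among 32851 mouse windows of the same length, 6.02% held the E-box, 3.85% its variant, 0.819% the D-box, 1.55% the cyclic AMP element and 2.23% the ROR half-site. No 2 of the matches overlapped. The windows of Per3, Cry1 and Per1 are printed because they match the D-box, bound by DBP, or the E-box, bound by CLOCK and BMAL1. They run 5′ to 3′ on the strand of the gene, with the matches in capitals. A match is a run of letters and not a measured binding site.
Per3, chr4:151044666-151044915, minus strand, D-boxes at -205 to -198 and -158 to -151 from the start: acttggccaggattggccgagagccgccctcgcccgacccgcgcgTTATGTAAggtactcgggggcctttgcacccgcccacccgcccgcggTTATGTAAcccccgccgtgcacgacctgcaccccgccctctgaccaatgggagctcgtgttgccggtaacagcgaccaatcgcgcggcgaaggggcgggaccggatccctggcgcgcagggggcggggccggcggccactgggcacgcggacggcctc
Cry1, chr10:85185055-85185304, minus strand, variant E-box on the reverse strand at -79 to -74 and E-box at -60 to -55: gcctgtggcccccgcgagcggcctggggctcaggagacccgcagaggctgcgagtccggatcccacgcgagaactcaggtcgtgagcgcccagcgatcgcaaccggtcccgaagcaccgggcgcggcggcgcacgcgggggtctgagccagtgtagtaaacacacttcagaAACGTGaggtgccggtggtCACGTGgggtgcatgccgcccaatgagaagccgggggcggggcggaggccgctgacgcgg
Per1, chr11:69098699-69098948, plus strand, E-box at -166 to -161: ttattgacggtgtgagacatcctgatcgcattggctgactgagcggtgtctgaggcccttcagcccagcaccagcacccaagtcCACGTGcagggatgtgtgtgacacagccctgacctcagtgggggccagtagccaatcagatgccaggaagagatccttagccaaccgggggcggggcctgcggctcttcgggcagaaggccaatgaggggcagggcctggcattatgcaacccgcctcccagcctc

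All 10 transcripts were detected in all 4 cell types, at very different levels. Per kilobase of exon, the scale on which genes can be compared, Per1 was the highest clock gene in CON mice in 3 of the 4 types, with 10.5 ± 3.07 (SD, n = 6) CPM per kb in Ly6Chigh monocytes, 7.75 ± 0.809 (n = 4) in Ly6Clow monocytes and 12.5 ± 2.17 (n = 6) in B cells. In T cells Cry1 stood highest, at 9.54 ± 3.29 CPM per kb, above Per1 at 6.55 ± 1.41, with spreads that overlap. Clock ranked next after Per1 in both monocyte types, with 6.54 ± 0.983 and 5.59 ± 0.727 CPM per kb, but ranked 8 of 10 in B cells with 1.97 ± 0.603. Nr1d2 held rank 3 in every type, between 4.10 and 5.97 CPM per kb. Per3 and Per2 were lowest in Ly6Chigh monocytes, with 0.247 ± 0.195 and 0.225 ± 0.137 CPM per kb, which do not differ beyond their spread. For Per2, counts in single libraries of these monocytes went as low as 1 read, so its values there carry a large counting error.

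**Figure D1:**
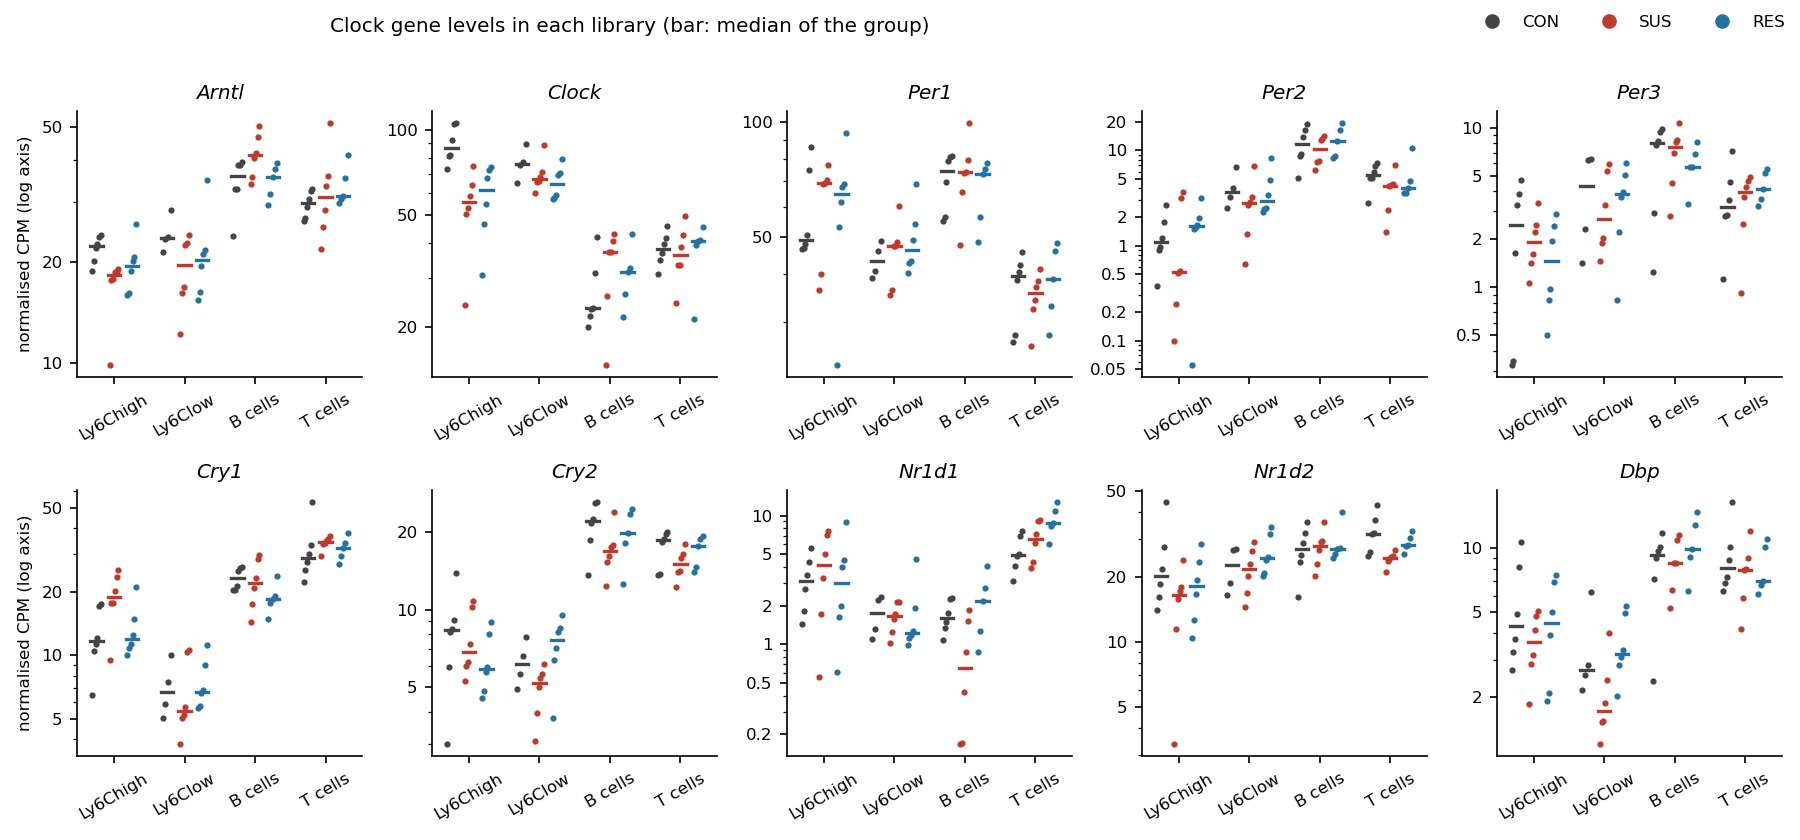
Each panel plots 1 clock gene, with normalised CPM on a log axis for each of the 68 libraries, grouped by cell type and coloured by CON, SUS and RES mice. Points are libraries and bars are group medians. In CON mice Clock is higher and Cry1 lower in every monocyte library than in every lymphocyte library, while CON, SUS and RES libraries of 1 cell type overlap for every gene.

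The first comparison was between cell types in unstressed mice. Clock was higher in monocytes than in lymphocytes, while Arntl, the other activator gene, was not. Among the repressors, Cry1, Cry2 and Per2 were mostly higher in lymphocytes. Per1 did not follow them, being higher in Ly6Chigh monocytes than in T cells, and Per3 was not called. In edgeR's quasi-likelihood test, a gene was called at a Benjamini-Hochberg adjusted p under 0.05 over 21032 genes and an absolute log2 fold change above 1. By this rule 3 of 10 clock genes were called between Ly6Chigh monocytes and B cells, where 33.1% of all genes were called, and 4 of 10 between Ly6Chigh monocytes and T cells, against 32.8%. For Ly6Clow monocytes it was 5 of 10 against B cells (30.3% of all genes) and 5 of 10 against T cells (28.5%). Between the monocyte types 1 of 10 was called (11.2%), and between B and T cells 2 of 10 (20.2%). The counts are close to the shares of all genes, except that those of Ly6Clow monocytes against lymphocytes are higher. With only 10 genes, whether these are an excess was not tested. By the adjusted p alone 29 of the 60 tests passed, against 19.3%, 47%, 45.7%, 42.5%, 39.4% and 31.4% of all genes in the order of Ly6Chigh against Ly6Clow monocytes, B cells and T cells, Ly6Clow monocytes against B and T cells, and B against T cells. In a bulk library, fewer cells expressing a gene and less RNA per cell cannot be told apart.

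The activators differed from each other in pattern. Clock in CON mice lay at 73.1, 87.0 and 106 CPM (lowest, median and highest of 6) in Ly6Chigh monocytes and at 64.9, 75.5, 77.1 and 89.3 CPM in Ly6Clow monocytes. It lay at 20.0, 23.4 and 42.0 CPM in B cells and at 31.0, 38.1 and 45.9 CPM in T cells. Every monocyte library was above every lymphocyte library. The log2 difference from B cells was 1.77 ± 0.15 (SE) for Ly6Chigh (adjusted p = 2.02e-10, edgeR) and 1.55 ± 0.16 for Ly6Clow monocytes (adjusted p = 1.21e-08), and from T cells 1.23 ± 0.15 and 1.01 ± 0.16. The last of these lies at the fold threshold. Arntl, the gene of CLOCK's partner BMAL1, went the other way and less far. It averaged 21.8 ± 2.07 CPM in Ly6Chigh monocytes, 24.2 ± 3.01 in Ly6Clow monocytes, 29.7 ± 2.68 in T cells and 34.4 ± 6.00 in B cells. No Arntl difference reached the fold threshold, although Ly6Chigh monocytes were below B cells by a log2 difference of -0.62 ± 0.13 (adjusted p = 3.96e-04) and below T cells by -0.44 ± 0.13 (adjusted p = 0.0082).

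Among the repressors, Per2 spanned the widest range. In CON mice it lay at 0.375, 1.09 and 2.66 CPM in Ly6Chigh monocytes, at 2.46, 3.26, 4.05 and 6.64 CPM in Ly6Clow monocytes, at 5.10, 11.6 and 18.9 CPM in B cells and at 2.82, 5.57 and 7.41 CPM in T cells. All Ly6Chigh libraries were below all B and T cell libraries. The log2 difference of Ly6Chigh monocytes was -3.16 ± 0.43 from B cells (adjusted p = 6.66e-07), -2.08 ± 0.41 from T cells (adjusted p = 1.46e-04) and -1.65 ± 0.44 from Ly6Clow monocytes (adjusted p = 0.00797). B cells were above T cells by 1.08 ± 0.40 (adjusted p = 0.0382), with libraries that overlap. The calls of Per2 between the monocyte types and between B and T cells were lost under some alternatives given at the end.

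Cry1 and Cry2, the strongest repressors of the CLOCK and BMAL1 pair, were lowest in monocytes. Cry1 lay at 6.49, 11.7 and 17.5 CPM in Ly6Chigh monocytes, at 5.03, 5.86, 7.46 and 10.0 CPM in Ly6Clow monocytes, at 20.3, 23.2 and 26.1 CPM in B cells and at 22.3, 28.8 and 53.0 CPM in T cells. No monocyte library reached the lowest lymphocyte library. Against T cells the log2 difference was -1.35 ± 0.23 for Ly6Chigh (adjusted p = 1.75e-05) and -2.16 ± 0.27 for Ly6Clow monocytes (adjusted p = 2.70e-07). Against B cells it was -0.86 ± 0.23 and -1.66 ± 0.27, the first short of the fold threshold. Cry2 averaged 8.09 ± 3.62 CPM in Ly6Chigh and 6.23 ± 1.27 CPM in Ly6Clow monocytes against 21.4 ± 4.78 in B cells and 17.4 ± 2.96 in T cells. All 4 monocyte to lymphocyte comparisons of Cry2 were called, with log2 differences from -1.74 ± 0.30 (Ly6Clow against B cells) to -1.10 ± 0.25 (Ly6Chigh against T cells). Neither gene passed the thresholds between B and T cells.

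Per1, an early gene that also answers to glucocorticoids, had its own order. It averaged 70.5 ± 12.2 CPM in B cells, 58.9 ± 17.3 in Ly6Chigh monocytes, 43.7 ± 4.55 in Ly6Clow monocytes and 36.9 ± 7.92 in T cells. All 6 B cell libraries were above all 6 T cell libraries, a log2 difference of 0.90 ± 0.17 (adjusted p = 1.13e-04) that is short of the fold threshold. All 6 Ly6Chigh libraries were also above all 6 T cell libraries, by 0.68 ± 0.17 (adjusted p = 0.00144, edgeR). Ly6Clow monocytes were below B cells by -0.65 ± 0.19 (adjusted p = 0.00743, edgeR), and both differences are short of the fold threshold. No neighbours in this order passed the adjusted p, with log2 differences of -0.22 ± 0.17 (Ly6Chigh against B cells), 0.43 ± 0.19 (Ly6Chigh against Ly6Clow) and 0.26 ± 0.19 (Ly6Clow against T cells). Per3 was low in all types, with CON means from 2.37 to 6.60 CPM, and its libraries of 1 group spread so widely (1.25 to 9.89 CPM in B cells) that no comparison was called.

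In the stabilising loop, Nr1d1 was highest in T cells. It lay at 3.12, 4.94 and 7.64 CPM there, at 1.45, 3.09 and 5.58 CPM in Ly6Chigh monocytes, at 1.10, 1.31, 2.19 and 2.32 CPM in Ly6Clow monocytes and at 1.09, 1.61 and 2.31 CPM in B cells. Every T cell library was above every B cell and Ly6Clow library. The log2 difference was -1.67 ± 0.42 for B against T cells (adjusted p = 0.00257) and -1.59 ± 0.48 for Ly6Clow monocytes against T cells (adjusted p = 0.00911). For Ly6Chigh monocytes against T cells Nr1d1 was not called (-0.71 ± 0.41, adjusted p = 0.168, edgeR), with libraries that overlap. Its paralog Nr1d2 was far more even, between 22.2 ± 5.37 CPM in Ly6Clow monocytes and 32.3 ± 6.71 CPM in T cells, and no comparison of it was called. Dbp, the output gene, lay at 2.16, 2.55, 2.83 and 6.26 CPM in Ly6Clow monocytes against 2.39, 9.31 and 11.8 CPM in B cells and 6.28, 8.05 and 16.4 CPM in T cells. Its log2 difference was -1.23 ± 0.45 from B cells (adjusted p = 0.0297) and -1.41 ± 0.46 from T cells (adjusted p = 0.0147), and only the T cell libraries were wholly above the Ly6Clow libraries. Ly6Chigh monocytes, with 5.59 ± 3.18 CPM of Dbp, passed the thresholds against none of the other types.

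**Figure D2:**
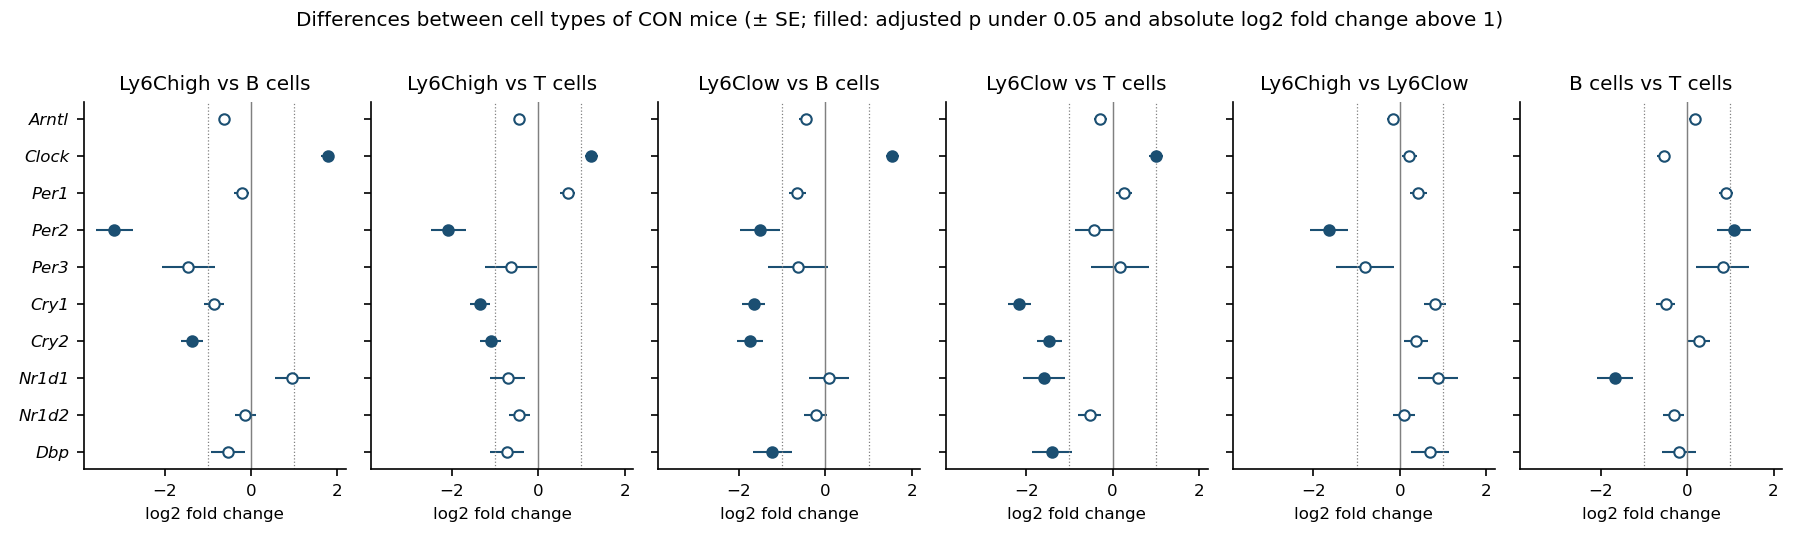
Log2 fold change (± SE) between cell types of CON mice for the 10 clock genes, 1 panel per pair of types, with filled points for genes past both thresholds and dotted lines at -1 and 1. Clock is the gene furthest to the right in the 4 panels of monocytes against lymphocytes (1.77, 1.23, 1.55 and 1.01), while Cry2 is filled to the left in each of them.

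The same comparisons were made in stressed mice, an addition after the data were seen. Among SUS libraries Clock was above B cells in Ly6Chigh monocytes by a log2 difference of 0.69 ± 0.22 and above T cells by 0.51 ± 0.22 (adjusted p = 0.0632). Among RES libraries these differences were 0.92 ± 0.21 and 0.62 ± 0.21. None of the 4 reached the fold threshold. Ly6Clow monocytes were above B cells in Clock by 1.07 ± 0.23 among SUS and 1.08 ± 0.21 among RES libraries, and above T cells by 0.89 ± 0.23 and 0.78 ± 0.21. Whether the Ly6Chigh differences changed with stress is the interaction given further on, which passed for SUS mice against B cells (adjusted p = 0.0227) but not for SUS mice against T cells (adjusted p = 0.165) or for RES mice against B cells (adjusted p = 0.102) or T cells (adjusted p = 0.26). Between Ly6Chigh and Ly6Clow monocytes Clock gave values that passed no threshold, -0.38 in SUS mice (adjusted p = 0.196) and -0.16 in RES mice (adjusted p = 0.578). Arntl passed both thresholds among SUS libraries, with log2 differences from B cells of -1.32 ± 0.20 in Ly6Chigh and -1.15 ± 0.20 in Ly6Clow monocytes. It was 1 of 6 members called in each of these, where 6399 and 5921 of 19581 genes were called. The interaction of Arntl for SUS mice, Ly6Chigh monocytes against B cells, did not pass in edgeR (-0.64 ± 0.24, adjusted p = 0.0946). For Ly6Clow monocytes against B cells no interaction was tested.

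Other genes tied to the clock, a list of 20 of which 19 were tested, also differed between cell types. The list holds paralogs and partners of the members, the kinases and ubiquitin ligases that act on PER and CRY proteins, and known clock outputs. Of the 19, 9 were called between Ly6Chigh monocytes and B cells (5 higher in the monocytes, 33.1% of all genes called) and 10 between Ly6Chigh monocytes and T cells (5 higher, 32.8% of all genes). For Ly6Clow monocytes 8 were called against T cells (28.5% of all genes) and 7 against B cells (30.3%), with 6 higher in the monocytes in each case. Between the monocyte types 4 were called (11.2% of all genes), and these were Bhlhe40, Wee1, Tef and Nampt. Bhlhe40, a repressor that competes for E-boxes, averaged 194 ± 23.3 CPM in Ly6Clow monocytes, 14.8 ± 1.77 in Ly6Chigh monocytes, 5.74 ± 6.44 in T cells and 11.6 ± 1.91 in B cells. Its log2 difference was -3.72 ± 0.46 between Ly6Chigh and Ly6Clow monocytes (adjusted p = 5.17e-06) and 5.13 ± 0.49 between Ly6Clow monocytes and T cells. Wee1, a cell cycle kinase, averaged 0.414 ± 0.645 CPM in Ly6Chigh and 2.60 ± 0.617 CPM in Ly6Clow monocytes (adjusted p = 0.0338, edgeR). Its level was so near 0 in the first that no fold is given. Tef, a relative of Dbp, was lower in Ly6Chigh than in Ly6Clow monocytes by -1.37 ± 0.25, while Nampt, an enzyme of NAD synthesis, was higher by 1.08 ± 0.20. Nfil3, which represses at the D-boxes that DBP activates, averaged 43.4 ± 4.84 CPM in Ly6Chigh and 18.2 ± 1.54 CPM in Ly6Clow monocytes against 0.773 ± 0.696 in B cells and 3.13 ± 1.26 in T cells. The difference of Nfil3 from B cells, where it was near 0, was 5.83 ± 0.60 for Ly6Chigh and 4.58 ± 0.59 for Ly6Clow monocytes. Ly6Clow monocytes were above T cells by 2.53 ± 0.54.

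The remaining named genes of this list were, like Wee1, near 0 in at least 1 of the types compared, so levels and no folds are given. Arntl2, the paralog of Arntl, averaged 1.72 ± 2.07 and 1.93 ± 1.87 CPM in Ly6Chigh and Ly6Clow monocytes and at most 0.0321 CPM in lymphocytes. Bhlhe41 averaged 5.40 ± 1.08 CPM in B cells, 0.134 in Ly6Chigh monocytes, 0.703 in Ly6Clow monocytes and 0.0412 in T cells. Rora averaged 19.9 ± 5.16 CPM in T cells, 12.4 ± 1.56 in Ly6Chigh monocytes, 4.75 ± 2.66 in Ly6Clow monocytes and 0.988 ± 1.12 in B cells, where its lowest library was at 0. Hlf, Npas2 and Fbxl21 averaged 1.00, 0.414 and 0.452 CPM in T cells and less in each other type. Between B and T cells 7 of 19 were called against 20.2% of all genes, 6 of them higher in T cells, and the furthest apart were Bhlhe41, Hlf, Npas2 and Rora.

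The second comparison asked whether stress moved the clock genes within a cell type. None of the 10 passed both thresholds in any of the 12 comparisons of SUS, RES and CON mice in edgeR, and DESeq2 also called none. Of the 120 tests, 1 had an adjusted p under 0.05 and 9 an unadjusted p under 0.05 in edgeR. By the unadjusted p, 26.5%, 21.2% and 3.66% of all genes passed in Ly6Chigh monocytes for SUS against CON, RES against CON and SUS against RES mice. The shares were 9.51%, 9.67% and 3.79% in Ly6Clow monocytes, 3.42%, 3.18% and 1.36% in B cells and 4.8%, 4.11% and 2.39% in T cells. In Ly6Chigh monocytes, where 3.45% of 16955 genes were called for SUS against CON mice and 0.997% for RES against CON mice, 0 of 10 clock genes were called in either, and between SUS and RES mice 0% of all genes were called. In Ly6Clow monocytes 0.0871%, 0.0154% and 0% of 19521 genes were called in the same order. In B cells it was 0.00568%, 0% and 0% of 17620 genes, and in T cells 0.0265%, 0% and 0% of 18860 genes. By the adjusted p alone, 12.6%, 4.97% and 0.0059% of genes passed in Ly6Chigh monocytes, 0.241%, 0.0256% and 0% in Ly6Clow monocytes, 0.00568%, 0% and 0% in B cells and 0.0424%, 0% and 0% in T cells. The counts of clock genes are close to these shares. In no comparison were the libraries of the groups apart for any member. How often they were apart over all genes was not counted.

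Clock in Ly6Chigh monocytes was the value furthest from 0 in its standard errors. CON libraries held 73.1, 87.0 and 106 CPM, SUS libraries 24.0, 55.8 and 74.7 CPM and RES libraries 30.8, 61.4 and 74.4 CPM. Of the SUS libraries 5 of 6 were below the lowest CON library, and so were 5 of 6 RES libraries. The log2 difference was -0.77 ± 0.22 for SUS against CON mice (0.587-fold, adjusted p = 0.0211) and -0.64 ± 0.22 for RES against CON mice (adjusted p = 0.0801), with an interval of 2 SE to each side from -1.20 to -0.34 and from -1.08 to -0.21. The first passes the adjusted p but not the fold threshold. DESeq2 gave an adjusted p of 0.00443 and 0.0375. The lowest SUS library, 14, and the lowest RES library, 18, also had the lowest share of mitochondrial reads of their groups, 6.32% and 6.50%, against 8.49% to 11.4% in CON mice. Without library 14 the SUS difference was -0.64 ± 0.18 (adjusted p = 0.032). Leaving out library 1 or 16, both of CON mice, gave an adjusted p of 0.0547 and 0.051. Across all 68 libraries, the deviation of Clock from its group mean had a correlation of 0.48 with the share of mitochondrial reads, the furthest from 0 among the 10 genes.

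Red cell transcripts moved with the same groups. The summed level of 6 red cell markers (Hba-a1, Hba-a2, Hbb-bs, Hbb-bt, Alas2, Slc4a1) in Ly6Chigh monocytes lay between 334 and 1190 CPM in CON libraries. It lay between 1090 and 9030 CPM for SUS and between 1060 and 4280 CPM for RES libraries, and none of the 6 was at 0 in a group. The covariate fitted was not this sum but the mean log2 level of the same 6 markers. With it, Clock differed by -0.43 ± 0.27 for SUS mice (adjusted p = 0.852, edgeR) and by -0.29 ± 0.27 for RES mice. In all, 1 gene was called for SUS against CON mice in place of 585. Since the summed red cell level nearly separates the groups, the part of red cell transcripts and that of stress cannot be told apart. The neutrophil set (Ly6g, Camp, Ltf, Cxcr2, Retnlg) had medians of 96.4, 122 and 108 CPM over CON, SUS and RES libraries of these monocytes, with a highest value of 555 CPM in SUS mice. The platelet set (Ppbp, Pf4, Itga2b, Gp9, Gp1bb) had medians of 6.17, 17.1 and 11.7 CPM in the same order, with up to 50.7 CPM in SUS mice, and the natural killer cell set 15.0, 5.29 and 12.1 CPM. No marker of these 3 sets was at 0 throughout a group, and their part was not tested.

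The other members in Ly6Chigh monocytes passed no adjusted p in edgeR. Cry1 lay at 6.49, 11.7 and 17.5 CPM in CON mice and at 9.47, 18.9 and 25.2 CPM under SUS. All but 1 of the 6 SUS libraries exceeded the highest CON value, with a log2 difference of 0.57 ± 0.26 (adjusted p = 0.159). In RES mice Cry1 differed from CON by 0.09 ± 0.26. Arntl lay at 18.7, 22.3 and 23.9 CPM in CON mice and at 9.88, 18.2 and 19.0 CPM in SUS mice, a log2 difference of -0.40 ± 0.18 (adjusted p = 0.157, and 0.0371 in DESeq2). Nr1d2 differed by -0.71 ± 0.35 (adjusted p = 0.194) and Dbp by -0.64 ± 0.44 (adjusted p = 0.379) for SUS mice. Per2, Per3, Cry2 and Nr1d1 had standard errors from 0.32 to 0.86 on the log2 scale in this contrast, so only changes well above these could have been seen.

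Within each cell type the mean of Per1 moved little between CON, SUS and RES mice. Over the 12 comparisons its log2 difference lay between -0.16 and 0.17, and its smallest adjusted p was 0.836. For SUS against CON mice the interval of 2 SE to each side went from -0.50 to 0.50 in Ly6Chigh monocytes, from -0.25 to 0.38 in Ly6Clow monocytes, from -0.25 to 0.38 in B cells and from -0.40 to 0.22 in T cells. Changes inside these intervals could have been missed. Single RES libraries of Ly6Chigh monocytes lay between 23.1 and 93.8 CPM. Set beside Per1 were 4 genes that glucocorticoids induce. Fkbp5, a co-chaperone of the glucocorticoid receptor, was higher in Ly6Chigh monocytes of SUS mice by a log2 difference of 0.87 ± 0.22 (adjusted p = 0.0108, short of the fold threshold). With the red cell covariate Fkbp5 differed by 0.53 ± 0.28 (adjusted p = 0.786). SUS libraries averaged 34.5 ± 8.13 CPM of it, CON libraries 18.4 ± 6.49 CPM. Fkbp5 differed by 0.54 ± 0.17 (adjusted p = 0.232) in Ly6Clow monocytes, by 0.59 ± 0.14 (adjusted p = 0.167) in T cells and by 0.25 ± 0.19 in B cells. Tsc22d3, Klf9 and Sgk1 differed by 0.12 ± 0.17, 0.37 ± 0.32 and 0.34 ± 0.19 in Ly6Chigh monocytes for SUS against CON mice, and none of the 3 passed an adjusted p in any of the comparisons.

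In the other cell types the members with the smallest p were the REV-ERB genes in T cells. T cells of CON mice held 24.9, 31.6 and 42.7 CPM of Nr1d2 and those of SUS mice 21.1, 24.5 and 26.6 CPM, a log2 difference of -0.43 ± 0.14 (adjusted p = 0.474). Nr1d1 lay at 6.06, 8.35, 8.70, 10.8 and 12.7 CPM in RES mice and at 3.12, 4.94 and 7.64 CPM in CON mice, a log2 difference of 0.82 ± 0.29 (adjusted p = 0.917), with 4 of 5 RES libraries above all CON libraries. In B cells Nr1d1 was close to the limit of counting, with 0.168, 0.651 and 1.86 CPM in SUS mice, where the lowest library had 5 counts, and 1.09, 1.61 and 2.31 CPM in CON mice. Of the SUS libraries 4 of 6 were below all CON libraries. Its log2 difference there was -1.02 ± 0.63 (adjusted p = 0.999). In Ly6Clow monocytes Dbp had the furthest value for SUS against CON mice, -0.72 ± 0.43 (adjusted p = 0.659), and the 10 members had a median log2 difference of -0.22, against -0.01 over all genes tested. The remaining unadjusted p under 0.05 were those of Clock for RES against CON mice in Ly6Clow monocytes (-0.25 ± 0.12, adjusted p = 0.505), of Cry2 for SUS against RES mice in the same cells (-0.56 ± 0.26, adjusted p = 1) and of Nr1d1 for SUS against RES mice in B cells (-1.41 ± 0.65, adjusted p = 1).

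**Figure D3:**
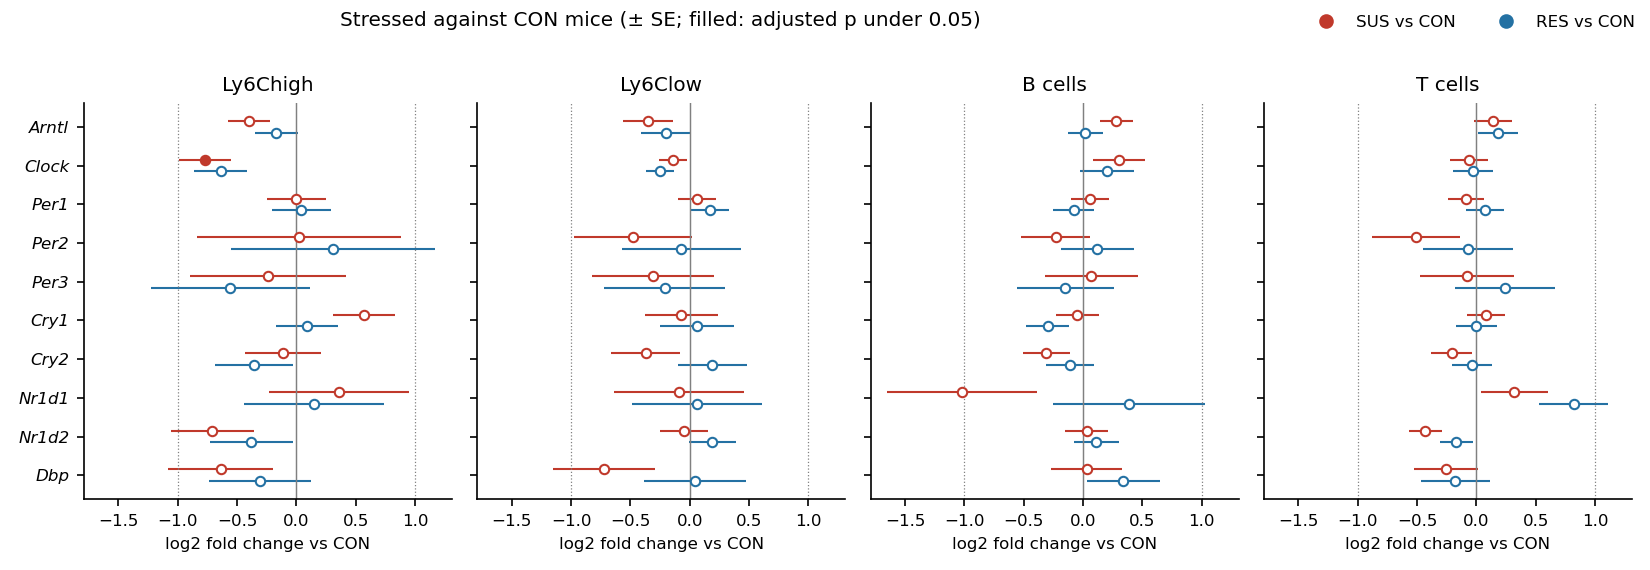
Log2 fold change (± SE) of the 10 clock genes in SUS and RES mice against CON mice, 1 panel per cell type, with filled points where the adjusted p is under 0.05 and dotted lines at -1 and 1. Only Clock for SUS mice in Ly6Chigh monocytes is filled (-0.77 ± 0.22), and the widest bars belong to Per2, Per3 and Nr1d1, the genes with the lowest counts.

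Whether the change of SUS or RES mice against CON mice differed between Ly6Chigh monocytes and another type was tested as an interaction over 24248 genes. Of the 10 members, 1 passed an adjusted p under 0.05 for SUS mice against B cells, where 6.18% of all genes did. This was Clock, with a difference of changes of -1.02 ± 0.29 on the log2 scale (adjusted p = 0.0227). The change of Clock was -0.77 in Ly6Chigh monocytes and 0.30 ± 0.22 in B cells, where CON libraries averaged 27.0 ± 8.28 CPM and SUS libraries 33.1 ± 10.8 CPM. The call was lost when only these 2 cell types were fitted (-1.04 ± 0.33, adjusted p = 0.0678) and without library 14 (-0.87 ± 0.27, adjusted p = 0.0615). In the other 5 interactions 0 of 10 members passed. The shares of all genes that passed were 0.363% for SUS mice against Ly6Clow monocytes and 3.22% against T cells, and for RES mice 0.099%, 1.65% and 0.713% against Ly6Clow monocytes, B cells and T cells. Over the 60 interaction tests of members, 7 had an unadjusted p under 0.05. Of all genes, 14.2%, 21.2% and 18.7% did for SUS mice against Ly6Clow monocytes, B cells and T cells. For RES mice it was 11.7%, 18.2% and 17.7% in the same order. DESeq2 passed 2 members against B cells for SUS mice, Clock and also Arntl (-0.75 ± 0.24, adjusted p = 0.0282), and 0 in the other 5.

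Of the other clock-associated genes, 1 of the 14 tested in Ly6Chigh monocytes was called for SUS against CON mice, where 3.45% of all genes were. This was Nfil3, with 39.5, 40.6 and 50.2 CPM in CON libraries and 73.6, 89.8 and 152 CPM in SUS libraries. All SUS libraries were above all CON libraries, with a log2 difference of 1.23 ± 0.22 (adjusted p = 0.00145). With the red cell covariate it was 0.76 ± 0.28 (adjusted p = 0.587), and the call was lost. In RES mice Nfil3 lay at 44.7, 79.1 and 124 CPM and differed from CON mice by 0.92 ± 0.22 (adjusted p = 0.0212), short of the fold threshold, and by 0.53 ± 0.27 (adjusted p = 1) with the covariate. Without library 1, 9, 15 or 18 the RES value also missed the adjusted p (0.0507 to 0.069). For RES against CON mice 0 of 14 were called, and 3 had an unadjusted p under 0.05 in edgeR, as did 21.2% of all genes. After Nfil3 the smallest p there was that of Btrc (-0.90 ± 0.34, adjusted p = 0.117). In Ly6Clow monocytes Nfil3 lay at 16.3 to 19.7 CPM in 4 CON libraries and at 23.0, 29.8 and 83.0 CPM in SUS mice, and all SUS and RES libraries were above all CON libraries. The log2 differences there, 1.09 ± 0.30 for SUS and 0.94 ± 0.30 for RES mice, were not called over 19521 genes, with an adjusted p of 0.188 and 0.288. Between SUS and RES mice 0 of 14 were called, and the smallest p belonged to Tef (-0.74 ± 0.33, adjusted p = 0.999) and Fbxw11 (-0.28 ± 0.15).

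In the remaining cell types 0 clock-associated genes were called in any stress comparison in edgeR, with at most 2 per comparison at an unadjusted p under 0.05. Between 1.36% and 9.67% of all genes had such a p in these comparisons. DESeq2 was not tallied for this list. In Ly6Clow monocytes the smallest p after Nfil3 were those of Tef for SUS (-0.37 ± 0.16) and Rora for RES against CON mice (0.51 ± 0.41), and of Nampt (0.29 ± 0.19) and Btrc (-0.22 ± 0.15) for SUS against RES mice. In T cells the smallest p belonged to Rora, a nuclear receptor that activates at the sites where REV-ERB proteins repress. Rora averaged 19.9 ± 5.16, 41.4 ± 21.9 and 40.6 ± 7.89 CPM over CON, SUS and RES libraries, with log2 differences of 1.04 ± 0.29 (adjusted p = 0.361) and 1.03 ± 0.30 (adjusted p = 0.781), and all 5 RES libraries were above all CON libraries. Next came Timeless for SUS mice (0.32 ± 0.15, adjusted p = 0.962) and Nampt for RES mice (0.44 ± 0.17, adjusted p = 0.954). Nampt and Fbxl21 had the smallest p between SUS and RES mice (adjusted p = 1 each). In B cells the smallest p were those of Bhlhe40, which averaged 11.6, 8.41 and 7.94 CPM over CON, SUS and RES libraries, and of Rora, which was at 0 in all RES libraries and at most 2.62 CPM in CON libraries. Between SUS and RES mice Rora and Tef came first in B cells (adjusted p = 1 each).

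The spread between libraries of 1 group differed widely among the members. The SD of log2(CPM + 0.5) within the 12 groups was smallest for Arntl (0.28) and largest for Per3 (0.77), Per2 (0.73) and Nr1d1 (0.68), against a median of 0.46 over the 15632 genes with a mean log2(CPM + 0.5) above 0. That set was not matched to the level of each gene, and these 3 were the members with the lowest mean levels, between 1.65 and 2.09 on this scale. Per3 and Per2 stood at the 87.6 and 81.7 percentile of these genes and Arntl at the 22.2 percentile. In T cells the least variable member was Nr1d2, with 0.20 (percentile 13.2), and in Ly6Clow monocytes it was Clock, with 0.19 (percentile 18.2). In Ly6Chigh monocytes Nr1d1 (0.98) and Per2 (0.95) spread the most.

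Whether members of the loop moved together between libraries of 1 cell type, after removal of the group means, was examined for 6 pairs in 4 cell types. No Pearson correlation of the 24 passed a Benjamini-Hochberg adjusted p under 0.05 (permutation tests with 100000 resamples, two-sided). The highest was Dbp with Per3, the member whose promoter window holds the D-box matches printed above, in B cells. The part of these matches was not tested. Over 17 libraries r was 0.79 (p = 0.00259, adjusted p = 0.0622, permutation test) and Spearman's rho 0.78 (p = 0.00082, adjusted p = 0.0197, permutation test). Library 35 of CON mice was lowest in both, with 2.39 CPM of Dbp and 1.25 CPM of Per3, and without the 2 libraries farthest in Dbp r was 0.69. With libraries 52 and 70 kept under their labels r was again 0.79 and passed the adjusted p. In Ly6Chigh monocytes the same pair had r = -0.50, in Ly6Clow monocytes 0.02 and in T cells 0.15, none of which passed. Arntl with Nr1d1, the activator and the receptor that represses it, had r = 0.55 in B cells (p = 0.0181, adjusted p = 0.217, permutation test) and values between -0.27 and -0.03 in the other types. Arntl with Dbp had r = -0.44 in T cells (p = 0.114, permutation test), which went to 0.09 without the 2 farthest libraries.

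**Figure D4:**
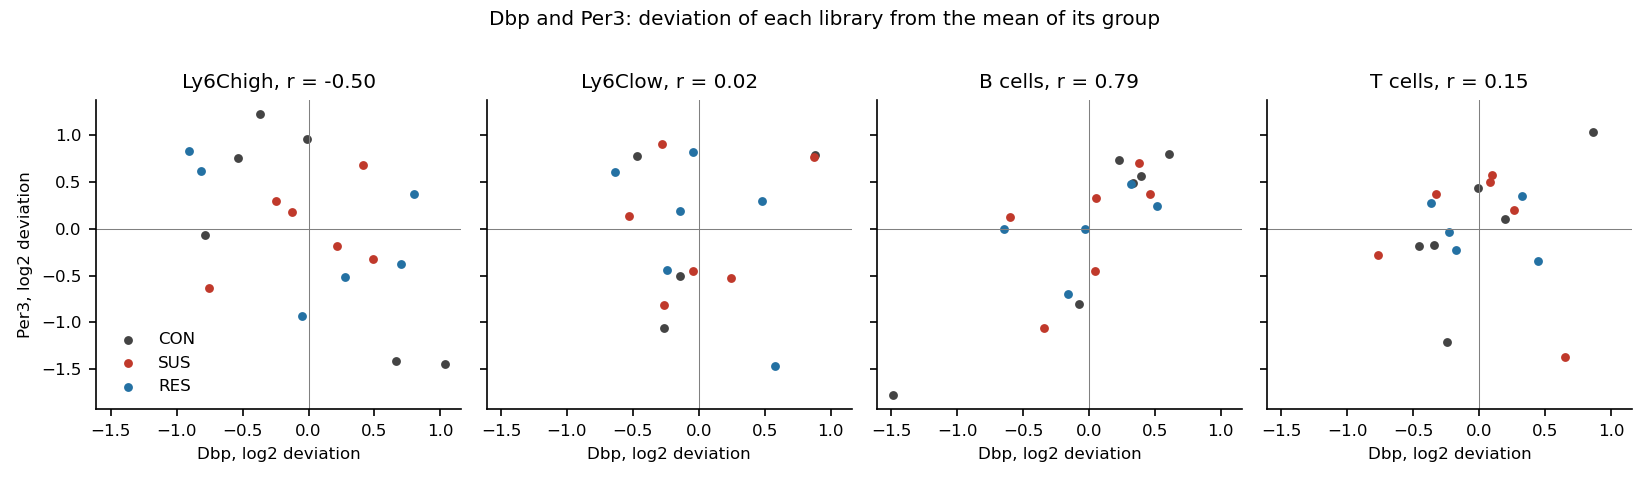
Deviation of each library from the mean of its group in log2(CPM + 0.5), Dbp on the horizontal and Per3 on the vertical axis, 1 panel per cell type, coloured by CON, SUS and RES mice. The points rise together in B cells (r = 0.79), where 1 CON library lies far to the lower left, and slope downwards in Ly6Chigh monocytes (r = -0.50).

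Over all 68 libraries and 24247 genes, genes whose deviations were among the most like those of Dbp were Nelfcd, Vav2, Ccdc61 and Kri1, with r from 0.47 to 0.49. For Arntl they were Ttf1, Zfp975, Gm42883, Gm16638 and Gm44185, with r from 0.52 to 0.55. None of these is a clock gene. Of the other members, Per2 came closest to Arntl, with r = 0.40 and rank 232, and Per1 closest to Dbp, with r = 0.13 and rank 4754. Clock and Dbp had r = -0.35, and both deviations also went with the share of mitochondrial reads, at r = 0.48 for Clock and -0.35 for Dbp. These correlations are descriptions over libraries of shared preparation, and no test was made of them.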

How the data were processed

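RNA was sequenced from leukocytes sorted from trunk blood by CD11b, Ly6C, Ly6G, B220 and CD90.2 after red cell lysis, with a stranded total RNA kit. The authors aligned reads with HISAT2 to mm10 and counted them per Ensembl gene with HTSeq, and deposited raw counts. The strand option and the treatment of reads mapping to several places are not given in the sources used here, and a gene that overlaps another can lose or gain reads by these choices. A library held 19769835 to 67038231 counts in total (median 37105583.5), so precision is lowest for members with few counts.

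Groups were taken from the labels. Libraries 52 and 70 were left out. The members and lists, the genes named included, were chosen with earlier results of these data known. Symbols came from GENCODE M21. Within each cell type, counts were fitted with edgeR 4.0.16 in R 4.3.3 (filterByExpr, TMM, robust quasi-likelihood) over CON, SUS and RES libraries, cell types over CON libraries, and interactions over all 68 libraries. P-values were adjusted by Benjamini-Hochberg over all genes tested, calls required both an adjusted p below 0.05 and a log2 change beyond 1 in size (interactions the adjusted p alone), SE is the absolute log2 fold change over the root of F, and all tests were two-sided. Of the clock-associated genes, up to 4 are named per comparison, those called with the largest fold change or, with none called, the 2 with the smallest p. Correlations used deviations of log2(CPM + 0.5) from group means. Alternatives were DESeq2 1.42.0, other size factors, no filter, fewer groups, technical genes removed, a red cell covariate, libraries 52 and 70 kept and each library left out. SUS or RES libraries in place of CON libraries, and the alternatives for Nfil3 and Fkbp5, were added after the data were seen. The cell types were sorted from the same stained blood, so their libraries may share mice, but the labels tie none to a mouse and the tests between cell types treat them as independent. The fits were tested on simulated data. Some genes are not reported here and were left out of the marker sets and list counts. No column of per-sample values was left unused (0).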

Additional observations from a re-analysis of the deposited data

Results flagged for a closer look

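Of 120 groups of libraries (10 genes, 4 cell types, 3 groups of mice), 8 held a library far from the others of its group, where chance gives about 1 in 20. Arntl was low in library 14 of SUS Ly6Chigh monocytes (9.88 CPM) and high in library 28 of RES Ly6Clow monocytes (34.8 CPM). Clock was low in library 61 of RES T cells (21.5 CPM), and Per2 was high in library 64 of the same group (10.5 CPM). Cry1 was high in library 53 of CON T cells (53.0 CPM), Nr1d1 in library 23 of RES Ly6Clow monocytes (4.60 CPM), Nr1d2 in library 40 of RES B cells (40.0 CPM) and Dbp in library 29 of CON Ly6Clow monocytes (6.26 CPM).

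In 3 cases the change against CON mice differed between Ly6Chigh monocytes and another cell type by a test of the interaction in edgeR. For SUS mice against B cells this was Clock (log2 difference of changes -1.02, adjusted p = 0.0227). For RES mice they were Rora against B cells (7.85, adjusted p = 0.0128) and Arntl2 against T cells (-10.74, adjusted p = 0.0289). The fitted values of Rora and Arntl2 depend on the prior count and are no bounds, since Rora was at 0 in every RES library of B cells and Arntl2 in every RES library of Ly6Chigh monocytes.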

How the results depend on the processing

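In the 12 stress comparisons the count of clock genes called stayed at 0 under every alternative run except that the adjusted p alone gave 1 (Clock) for SUS against CON Ly6Chigh monocytes. In CON mice, Ly6Chigh against Ly6Clow monocytes gave 0 with only these cell types or RES libraries in place of CON and 2 by the adjusted p alone, with 0 to 2 when a library was left out (0 without library 21, 2 without library 32). Ly6Chigh monocytes against B cells gave 5 by the adjusted p alone and 6 with SUS libraries (3 to 5 without 1 library, 5 without library 16), and B against T cells gave 1 without the filter or with RES libraries and 4 by the adjusted p alone (1 to 2, with 1 without library 41, 47, 50, 59 or 62). Against T cells Ly6Chigh monocytes gave 3 to 5 without 1 library, and Ly6Clow monocytes 4 to 5 against either lymphocyte. The interaction of SUS mice against B cells gave 2 in DESeq2, 0 with only these cell types and 0 to 1 without 1 library (0 without library 14). Among correlations, 1 passed with libraries 52 and 70 kept. Per2 lost its call between B and T cells without the filter (adjusted p = 0.0512, edgeR) and between monocytes with only these types (adjusted p = 0.051, edgeR). With SUS libraries the count between monocytes stayed at 1, but Per2 was not the gene called. That call was of a member higher in Ly6Chigh monocytes, and 0 members were called lower. The cause of these changes was not tested.

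Values that turned sign were uncalled. Log2 differences that turned sign but moved by less than 1 SE are not listed. With the red cell covariate the listed values were, in Ly6Chigh monocytes, Nr1d2 (0.08 for SUS, 0.51 for RES), Arntl (0.17), Per1 (-0.25) and Cry1 (-0.21) for RES, in Ly6Clow monocytes Arntl (0.10) and Nr1d1 (-0.63) for RES, and Clock in T cells (0.18 for SUS, 0.16 for RES). With libraries 52 and 70 kept they were Per2 in T cells for RES (0.32) and r of Dbp with Nr1d1 (-0.39) and Nr1d2 (-0.30) in T cells. With SUS libraries they were Clock (-0.38) and Nr1d2 (-0.53) between monocytes and Nr1d2 (0.16) between B and T cells, and with RES libraries Clock (-0.16), Cry2 (-0.18) and Nr1d2 (-0.46) between monocytes and Dbp (0.34) between B and T cells. With 1 library left out, ranges that cross 0 at a turned sign were Arntl (-0.23 to 0.04) and Nr1d1 (-0.28 to 0.36) for SUS against RES Ly6Clow monocytes, Arntl (-0.04 to 0.23) for SUS T cells and Nr1d2 (-0.17 to 0.21) between monocytes. Counts of all genes called for SUS against CON Ly6Chigh monocytes went from 585 to 1 with the red cell covariate and 804 in DESeq2 (286 to 893 without 1 library), and for RES from 169 to 0 and 511 (29 to 365). No paired analysis was possible because each library number in the labels is unique and none is tied to a mouse, so cell types that may share mice could not be paired.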
